A study of Mus musculus with 6 samples.

Results

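Described here in mouse uterus are 10 genes of temperature and protein-folding stress: the cold-inducible RNA-binding protein genes Cirbp and Rbm3, and the heat shock genes Hsp90ab1, Hsp90aa1, Hspa8, Hspa1a, Hspa1b, Hsph1, Dnajb1 and Hspd1. They were chosen by name, with their values in these libraries already known, and all 10 were found among the 20637 genes listed. Whole uteri came from female mice killed on postnatal day 21, 3 homozygous for a floxed Nat10 allele (Nat10 f/f, the controls) and 3 labelled Nat10 d/d, the deleted genotype. Nat10 encodes an acetyltransferase that modifies cytidines in RNA. The labels do not name the Cre driver or the cells in which the gene was deleted, nor do they say whether each library came from 1 animal. P-values therefore measure the spread between these libraries, which may in part be technical.

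Cells respond to heat and to misfolded protein through heat shock factor 1, a transcription factor that binds heat shock elements in the promoters of chaperone genes. The chaperones of the Hsp70 and Hsp90 families, with their partners, fold or hold other proteins, and in the uterus Hsp90 complexes also keep steroid hormone receptors in a form that can bind hormone. Cirbp and Rbm3 belong to the opposite arm. Both encode small RNA-binding proteins with a single RNA recognition motif and a glycine-rich tail, and their transcripts are known to rise when cells are mildly cooled and to follow the daily rhythm of body temperature.

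Library totals were alike, between 500764 and 549263 FPKM (fragments per kilobase of transcript and scaled to the library's total, a level already divided by gene length and depth). FPKM values do not show how many reads lie behind a gene, so depth is unknown and no counting intervals are given. The targeted gene, Nat10, was at 13.2, 16.4 and 9.95 FPKM in controls 1, 2 and 3 and at 5.57, 5.23 and 5.53 in d/d replicates 1, 2 and 3, without overlap. Its change on the log2(FPKM + 1) scale was -1.11 (SE 0.17), with a limma adjusted p of 0.669. The uterine transcription factor gene Hoxa10 was at 132 to 148 FPKM in controls and at 116 to 151 in d/d libraries. Hoxa11 and Esr1 also overlapped between groups, while the progesterone receptor gene Pgr (60.3 to 73.8 against 25.4 to 35.3 in d/d) and the gland marker Foxa2 (2.06 to 2.72 against 1.14 to 1.75) were lower in d/d without overlap, with limma adjusted p of 0.669 and 0.922. The smooth muscle markers Acta2, Myh11, Cnn1, Des and Tagln summed to at least 3466 in each library. The oocyte gene Zp3, the granulosa cell gene Fshr and the skeletal muscle gene Myh4 were listed at 0 in all 6 libraries. A pair of libraries stood apart: 12 proliferation markers (Mki67, Top2a and others, all 12 listed) summed to 224 FPKM in d/d replicate 2, against 22.2 and 11.3 in d/d replicates 1 and 3 and 94.0, 24.6 and 59.7 in controls 1, 2 and 3. In control replicate 1, 7 blood markers (Hba-a1, Hbb-bs and others, all 7 listed) summed to 5582 FPKM, against 709 to 2629 elsewhere, and 3 fat markers (Adipoq, Plin1 and Cfd) to 31.2, against at most 8.59. Without control replicate 1 the changes of Cirbp and Rbm3 given below were 0.66 and 0.94, and the heat shock median was -0.18. The changes of members that peaked in d/d replicate 2 are given with and without it.

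The members did not share 1 pattern across the 6 libraries. Rbm3 was higher in every d/d library than in any control. Cirbp was about equal in the 3 controls (56.8 to 58.2 FPKM), a little lower in d/d replicate 2 (51.5), and higher in d/d replicates 1 and 3 (115 and 128). Of the 8 heat shock genes, 6 peaked in d/d replicate 2, and 6 were lowest in d/d replicate 1 or 3. These are not all the same genes, as Hsp90aa1 was lowest in control replicate 3 and Hspa1a in d/d replicate 1. Hspa1a and Hspa1b instead peaked in control replicate 2.

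In limma, 0 of the 10 members passed an adjusted p of 0.05, where 0.0% of the 12640 genes tested did. The targeted gene Nat10 did not pass, so a count of 0 does not show that levels were unchanged. Of all tested genes, 630 had an unadjusted p under 0.05. The groups did not overlap for 1 member, Rbm3, against 10.7% of all tested genes (6.12% higher and 4.6% lower in d/d). With array quality weights, which give libraries that stand apart less weight, 2 members passed, Cirbp and Rbm3, where 2.5% of all tested genes did. Because the members were picked with this contrast known, their changes are given below as values with standard errors and without p-values, and nothing is read from these counts. In tissue RNA, fewer cells of a type and less RNA per cell cannot be told apart.

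**Figure D1:**
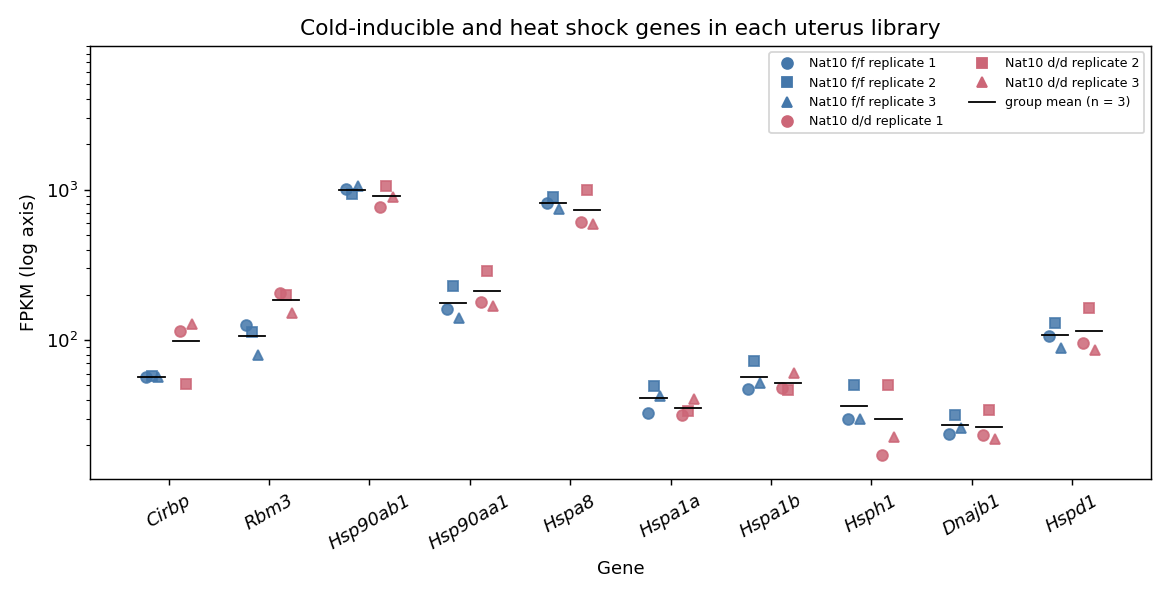
FPKM of each of the 10 genes (log axis) in 3 Nat10 f/f and 3 Nat10 d/d libraries; each symbol is 1 library, its shape gives the replicate number, and black bars are group means. Rbm3 is the 1 gene whose groups do not overlap, and Cirbp in d/d replicate 2 (51.5 FPKM) lies just below the controls.

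Cirbp (ENSMUSG00000045193; chr10:80165985-80172786, plus strand, GRCm38) encodes the cold-inducible RNA-binding protein. It was at 57.0, 58.2 and 56.8 FPKM in controls 1, 2 and 3, and at 115, 51.5 and 128 in d/d replicates 1, 2 and 3. The controls were almost the same as each other, while d/d replicates 1 and 3 were high and d/d replicate 2 was the lowest of the 6. The control mean was 57.3 ± 0.734 FPKM and the d/d mean 97.9 ± 40.7 (SD, n = 3 each), 171% of control. On the log2(FPKM + 1) scale the change was 0.66 with an SE of 0.31, and it was 1.06 without d/d replicate 2, 0.49 without d/d replicate 1 and 0.42 without d/d replicate 3. The SD among controls was 0.02 log2 units, against a median of 0.12 over all tested genes. Among d/d libraries it was 0.71, against a median of 0.21.

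The promoter sequences shown for members come from RefSeq windows (GRCm38.p6) that run from 250 bases before to 50 after an annotated start. Of the members, 6 have such a window, and only bases outside annotated exons are printed, apart from short sites of at most 30 bases. For Cirbp, chr10:80167589-80167777 on the plus strand holds 2 CCAAT boxes, which are in capitals (CCAAT or its reverse complement ATTGG):
Cirbp: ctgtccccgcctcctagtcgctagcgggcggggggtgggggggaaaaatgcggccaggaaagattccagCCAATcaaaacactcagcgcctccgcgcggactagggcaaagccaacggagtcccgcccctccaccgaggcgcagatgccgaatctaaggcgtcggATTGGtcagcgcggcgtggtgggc
No heat shock element of 2 inverted units (GAANNTTC or TTCNNGAA, each its own reverse complement) was found in either Cirbp window. Such a pair occurs in 15.1% of the 32851 windows in the table, a CCAAT box on either strand in 37.4%, and a TATA box (TATAAA or TTTATA) in 13.6%.

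Rbm3 (ENSMUSG00000031167; chrX:8138975-8145880, minus strand, GRCm38), the other cold-inducible gene, encodes a protein that promotes translation in cooled cells. Its level was 127, 114 and 79.5 FPKM in controls 1, 2 and 3 and 205, 200.4 and 151 in d/d replicates 1, 2 and 3. Every d/d library was above the highest control. The mean was 107 ± 24.6 FPKM in controls and 186 ± 29.6 in d/d uteri (SD, n = 3), or 174% of control. The log2 change was 0.80 (SE 0.20), and it stayed between 0.61 and 0.94 when any single library was left out. The antisense gene Rbm3os overlaps Rbm3 exons on the opposite strand, and a processed copy, Rbm3-ps, shares 465 bases at 99.4% identity; of 4 genes with such a match, Phospho2, at 6.68 to 11.6 FPKM, is the 1 in the deposited tables, and the authors' counting could have split reads among these genes.

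The 2 cold-inducible genes differed in d/d replicate 2. There Rbm3 was 0.93 log2 units above the control mean and Cirbp was 0.15 below it (log2 difference -0.15). In d/d replicates 1 and 3 both were above it, by 0.96 and 0.53 log2 units for Rbm3 and by 0.99 and 1.14 for Cirbp. The ratio of Cirbp to Rbm3 in FPKM, which does not depend on library scaling, was 0.448, 0.511 and 0.715 in controls 1 to 3 and 0.560, 0.257 and 0.843 in d/d replicates 1 to 3. It was thus lowest in d/d replicate 2 and highest in d/d replicate 3, and the groups overlapped.

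Hsp90ab1 (ENSMUSG00000023944; chr17:45567775-45573271, minus strand), the constitutive cytosolic Hsp90, was the most abundant member. It was at 1003, 940.0 and 1059.7 FPKM in controls 1, 2 and 3 and at 764, 1063 and 898 in d/d replicates 1, 2 and 3. The d/d replicates 1 and 3 lay below every control and d/d replicate 2 above every control. Its log2 change was -0.15 (SE 0.15), smaller than the spread among d/d libraries (SD 0.24). It was -0.27 without d/d replicate 2 and -0.03 without d/d replicate 1.

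Hsp90aa1 (ENSMUSG00000021270; chr12:110690605-110702728, minus strand) encodes the stress-inducible Hsp90. It was at 162, 229 and 141 FPKM in controls 1, 2 and 3 and at 180.3, 288 and 168 in d/d replicates 1, 2 and 3. Replicate 2 was the highest of its group in both genotypes, and the groups overlapped. On the log2 scale the change was 0.25 (SE 0.25), 0.01 without d/d replicate 2, 0.10 without control replicate 3, 0.39 without d/d replicate 3 and 0.45 without control replicate 2. Per library, Hsp90aa1 was 0.133 to 0.244 of Hsp90ab1 in controls and 0.188 to 0.271 of it in d/d libraries.

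Hspa8 (ENSMUSG00000015656; chr9:40800984-40810087, plus strand), the constitutive cytosolic Hsp70 known as Hsc70, was at 812, 895 and 746 FPKM in controls 1, 2 and 3. In d/d replicates 1, 2 and 3 it was at 605, 1001 and 591. As with Hsp90ab1, d/d replicates 1 and 3 were below all controls and d/d replicate 2 was above them. Its log2 change was -0.20 (SE 0.22), -0.45 without d/d replicate 2, -0.08 without d/d replicate 1 and -0.07 without d/d replicate 3. Near-identical copies elsewhere in the genome (at least 90% identity over 300 bases) number 13 for Hspa8, 5 for Hspd1, 4 for Hsp90aa1 and 2 for Hsp90ab1, and Hspa8 hosts the small nucleolar RNA genes Snord14c, Snord14d and Snord14e, so the split of their reads is uncertain.

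Hspa1a (ENSMUSG00000091971; chr17:34969190-34972156, minus strand) and Hspa1b (ENSMUSG00000090877; chr17:34956436-34959238, minus strand) encode the stress-inducible Hsp70. On the opposite strand, Gm20481 overlaps Hspa1a. Transcripts of the pair share 2201 bases at 99.2% identity and cannot be told apart reliably in short reads. The start-site windows of both genes differ at 4 of 300 bases, 3 of them before the start. Counted from 1 at the 5′ end of the window, and with the Hspa1a base first, the differences are C44T, T47C, T249G and C276T. The 250 bases before each start are shown to make this likeness visible, chr17:34972157-34972406 for Hspa1a and chr17:34959239-34959488 for Hspa1b, both on the minus strand. Capitals mark a heat shock element of 2 inverted units and a CCAAT box, at the same positions in both:
Hspa1a: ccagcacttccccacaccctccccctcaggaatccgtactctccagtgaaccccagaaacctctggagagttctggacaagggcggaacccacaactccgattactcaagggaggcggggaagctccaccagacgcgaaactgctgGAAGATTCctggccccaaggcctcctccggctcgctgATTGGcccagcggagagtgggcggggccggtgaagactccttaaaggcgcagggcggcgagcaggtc
Hspa1b: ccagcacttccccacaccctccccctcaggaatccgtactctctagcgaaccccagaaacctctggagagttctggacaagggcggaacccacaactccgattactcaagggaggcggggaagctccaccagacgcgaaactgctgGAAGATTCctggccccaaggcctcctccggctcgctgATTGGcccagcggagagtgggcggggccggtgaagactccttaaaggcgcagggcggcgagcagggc
Hspa1a was at 32.6, 49.7 and 42.3 FPKM in controls 1, 2 and 3 and at 31.6, 33.6 and 40.5 in d/d replicates 1, 2 and 3. Hspa1b was at 47.5, 72.3 and 51.7 in controls and at 48.1, 47.0 and 60.3 in d/d libraries. Control replicate 2 was the highest library for both genes. Their sum, which depends less than either value on how reads were split between the 2 genes, was 98.7 ± 21.4 FPKM in controls and 87.0 ± 11.9 in d/d uteri (SD, n = 3), with overlapping groups. The log2 changes were -0.22 (SE 0.17) for Hspa1a and -0.12 (SE 0.18) for Hspa1b. Without control replicate 2 they were -0.08 and 0.05, without control replicate 1 -0.38 and -0.24, and without d/d replicate 2 -0.19 and -0.06. For Hspa1b the change was -0.18 without control replicate 3, -0.08 without d/d replicate 1 and -0.24 without d/d replicate 3.

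Relative to Hspa8, the inducible pair was lowest in d/d replicate 2. The sum of Hspa1a and Hspa1b was 0.0986, 0.136 and 0.126 of Hspa8 in controls 1 to 3 and 0.132, 0.0805 and 0.171 of it in d/d replicates 1 to 3. The library with the highest Hspa8 thus had the lowest share of the inducible forms.

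Hsph1 (ENSMUSG00000029657; chr5:149614287-149636376, minus strand) encodes Hsp110, a nucleotide exchange factor for Hsp70. It varied most among the members, 2.9-fold between the highest and lowest library. Values were 30, 50.2 and 29.9 FPKM in controls 1, 2 and 3 and 17.3, 50.2 and 22.9 in d/d replicates 1, 2 and 3. Replicate 2 of each genotype was high, and d/d replicates 1 and 3 were below every control. The log2 change was -0.38 (SE 0.38), -0.81 without d/d replicate 2, -0.13 without control replicate 2 and -0.07 without d/d replicate 1.

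Hsph1 and Hspd1 are the members whose windows hold a heat shock element of 3 alternating GAA and TTC units, each 2 bases apart, a pattern found in 0.603% of all windows. The Hsph1 stretch lies at chr5:149636279-149636308, just after the start and within an annotated exon, and the Hspd1 stretch at chr1:55088055-55088084, also within an annotated exon; both are on the minus strand. Capitals mark the element, and for Hspd1 the first of 2 such elements, of which the second overlaps it and runs on into the lower-case letters that follow:
Hsph1: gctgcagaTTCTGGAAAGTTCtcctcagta
Hspd1: gcggggccTTCCGGAAGGTTCtagaacgga
The region before the exons of Hsph1, chr5:149636377-149636586 on the minus strand, holds 2 CCAAT boxes, in capitals:
Hsph1 upstream: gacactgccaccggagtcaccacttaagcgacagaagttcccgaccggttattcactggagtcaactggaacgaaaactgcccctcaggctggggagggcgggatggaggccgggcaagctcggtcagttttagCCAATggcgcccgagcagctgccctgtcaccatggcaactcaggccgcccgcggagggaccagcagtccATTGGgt
The matches are descriptions of letters in these windows and do not show binding.

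Dnajb1 (ENSMUSG00000005483; chr8:83608193-83612653, plus strand), an Hsp40 that delivers clients to Hsp70, was the least abundant member. It was at 23.8, 32.0 and 26.0 FPKM in controls 1, 2 and 3 and at 23.6, 34.4 and 22 in d/d replicates 1, 2 and 3. Again replicate 2 was the highest of each group. Its change was -0.05 log2 units (SE 0.19). It was -0.24 without d/d replicate 2, 0.02 without d/d replicate 1, and 0.07 without control replicate 2 or without d/d replicate 3. No heat shock element of either form was found in its windows.

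Hspd1 (ENSMUSG00000025980; chr1:55077835-55088243, minus strand) encodes the mitochondrial chaperonin Hsp60. It was at 107, 129 and 89.0 FPKM in controls 1, 2 and 3 and at 95.5, 164 and 86.3 in d/d replicates 1, 2 and 3. The order of libraries was close to that of Hspa8, with d/d replicate 2 highest and d/d replicate 3 lowest. Its change was 0.05 log2 units (SE 0.25). It was -0.24 without d/d replicate 2 and -0.09 without control replicate 3, and 0.15 to 0.22 without control replicate 2, d/d replicate 1 or d/d replicate 3. Hspe1, which encodes the Hsp10 partner of Hsp60, overlaps Hspd1 exons on the opposite strand. Its values were 162, 190.0 and 131 FPKM in controls and 159.7, 278 and 124 in d/d replicates 1 to 3, and reads in the stretch that the pair shares cannot be told apart unless the counting used strand, which is not stated.

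Considered as a list, the 8 heat shock members had a median log2 change of -0.14, beside 0.03 over all tested genes, with 6 changes below 0 and 2 above. The medians by library were -0.14, 0.27 and -0.12 in controls 1 to 3 and -0.29, 0.31 and -0.22 in d/d replicates 1 to 3, relative to the control mean. The highest median of each genotype was that of replicate 2, and the ranges of the groups overlapped. Without control replicate 2 the median change was -0.01, with 4 members below 0 and 4 above. Without d/d replicate 2 it was -0.24, with 7 below 0 and 1 above, and without d/d replicate 1 it was -0.05, with 5 below and 3 above. Of the 8, 6 were highest of all libraries in d/d replicate 2, where 30.1% of all tested genes were. Among the controls, 7 of 8 were highest in control replicate 2, where 35.1% of all tested genes were.

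**Figure D2:**
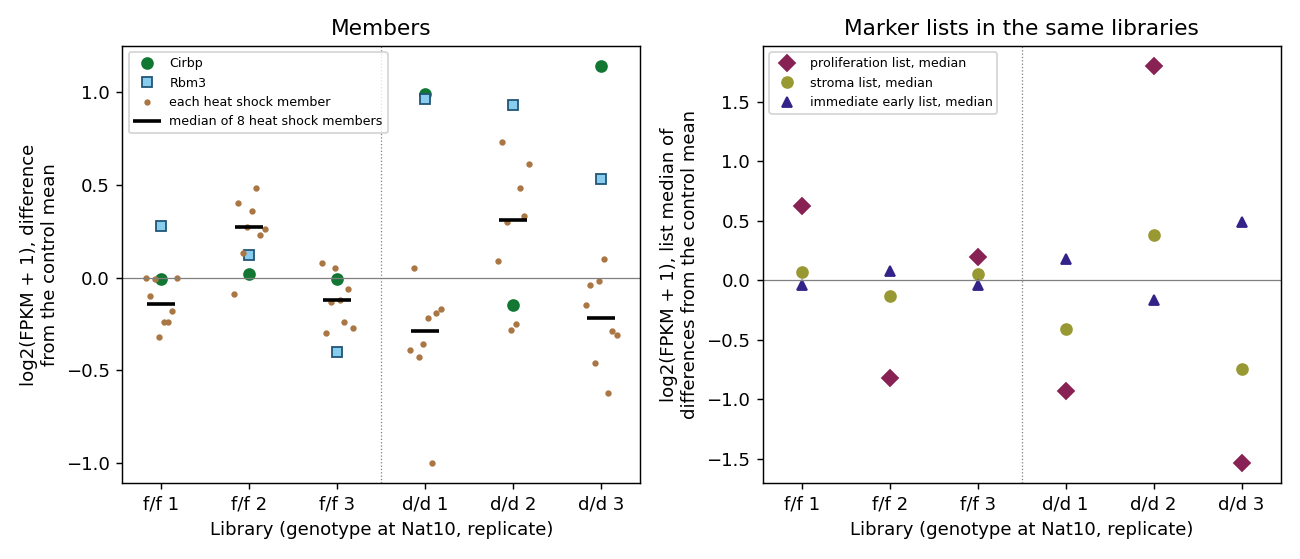
Left, difference of each gene from the control mean in log2(FPKM + 1) units for the 6 libraries, with Cirbp, Rbm3, each of the 8 heat shock genes and their median (black bars). Right, medians of the proliferation, stroma and immediate early lists in the same libraries; heat shock medians are above 0 in replicate 2 of both genotypes (0.27 and 0.31), while the proliferation median is -0.82 in one and 1.80 in the other.

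Other marker lists moved with some of these libraries. In d/d replicate 2, where most heat shock genes were highest, the proliferation markers were also highest. In control replicate 2, where heat shock genes were highest of the controls, proliferation markers were lowest of the controls (24.6 FPKM summed). The 5 stromal markers (Col1a1, Col1a2, Dcn, Lum and Pdgfra, all 5 listed, none at 0) summed to 2552 to 2831 FPKM in controls. They summed to 2213 and 2126 in d/d replicates 1 and 3, which had the high Cirbp values, and to 2817 in d/d replicate 2. The 12 immediate early genes (Fos, Jun, Egr1 and others, all 12 listed), which respond within minutes to handling of tissue, summed to 219 to 227 in controls and to 229, 196 and 321 in d/d replicates 1 to 3. The part of these lists in the results was not tested.

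The cold-inducible and heat shock genes were also compared within each library as ratios. Rbm3 was 0.157, 0.127 and 0.107 of Hspa8 in controls 1 to 3 and 0.338, 0.2 and 0.256 of it in d/d replicates 1 to 3, so all d/d libraries exceeded the controls. Cirbp was 0.0650 to 0.0762 of Hspa8 in controls, and 0.190, 0.0515 and 0.216 of it in d/d replicates 1 to 3. By highest over lowest library the ratio of Cirbp to Hsph1 varied more than the others computed, at 1.90, 1.16 and 1.90 in controls and 6.61, 1.03 and 5.58 in d/d libraries. Here d/d replicate 2 lay below the controls, as it did for Cirbp itself. Rbm3 to Hsph1 was 2.27 to 4.24 in controls and 11.8, 3.99 and 6.62 in d/d replicates 1 to 3, with overlap.

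**Figure D3:**
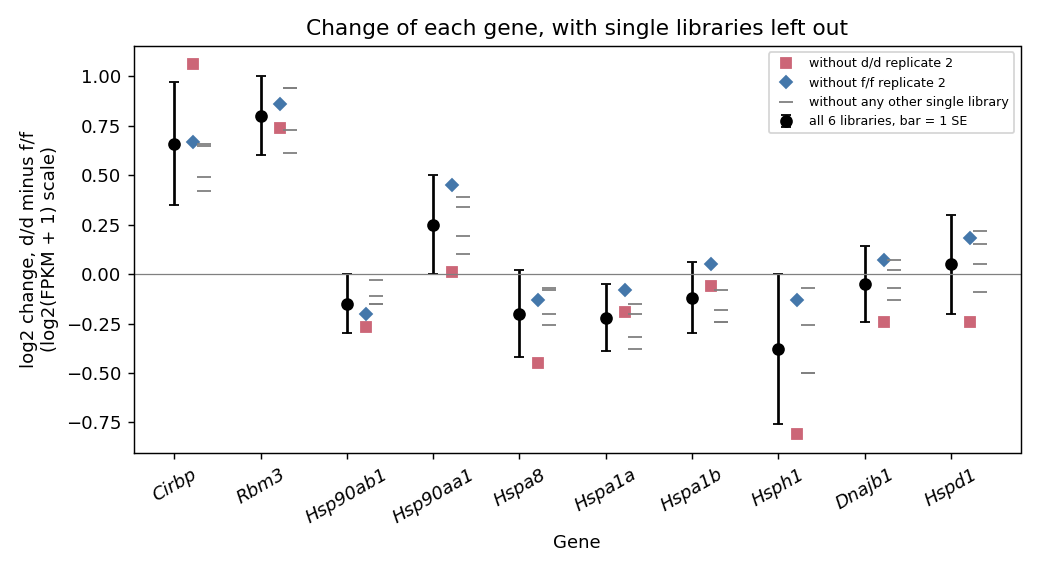
Log2 change (d/d minus f/f, log2(FPKM + 1) scale) of each gene with all 6 libraries (black, bar 1 SE) and with single libraries left out. Cirbp and Rbm3 stay above 0 in each case; Hspa1b, Dnajb1 and Hspd1 take either sign.

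Levels can be compared between genes because FPKM is divided by length. In controls the order by mean was Hsp90ab1 (1001 FPKM), Hspa8 (817), Hsp90aa1 (177), Hspd1 (108), Rbm3 (107), Cirbp (57.3), Hspa1b (57.2), Hspa1a (41.5), Hsph1 (36.7) and Dnajb1 (27.3). The control ranges of Hspd1 and Rbm3 overlapped, as did those of each neighbouring pair from Cirbp downwards. Hsp90ab1 exceeded Hspa8 in all 6 libraries. Hspd1 exceeded Rbm3 in 2 libraries, both of them controls. The order of genes with near-identical copies, Hspa1a and Hspa1b above all, carries the uncertainty in how their reads were split. Averaged over all libraries, Hsp90ab1 ranked 83rd and Dnajb1 3313th of the 20637 listed genes.

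The rest of the chaperone network was taken from 7 lists of 86 genes, of which 81 were tested. None of the 81 passed an adjusted p of 0.05 in limma in either direction, as for all tested genes (0.0%), and 4 (4.94%) had an unadjusted p under 0.05, beside 4.98% of all tested genes. Changes were above 0 for 58 (71.6%, beside 56.6% of all tested genes) and below 0 for 23, with a median of 0.06. Without d/d replicate 2 they were above 0 for 37 (45.7%, beside 54.1% of all tested genes) and below 0 for 44, with a median of -0.01. The sign count thus changed when that library was left out, and it was not made without any other library. The groups did not overlap for 4 of them (4.94%), against 10.7% of all tested genes.

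Of the transcription factors that drive the heat shock response, Hsf1 was 21.6 ± 1.71 FPKM in controls and 20.3 ± 0.956 in d/d uteri (SD, n = 3; log2 change -0.09, SE 0.11). Hsf2 was at 10.3, 11.6 and 11.2 FPKM in controls and at 13.5, 14.0 and 12.8 in d/d libraries, without overlap (log2 change 0.27, SE 0.10; limma adjusted p 0.922). Hsbp1, which encodes an inhibitor of heat shock factor 1, had a log2 change of 0.03. The list held 5 genes, 3 of them tested.

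Among 8 other Hsp70 genes, 3 changes were above 0 and 5 below (median -0.04, and -0.10 with the same counts without d/d replicate 2). Hspa12b, an atypical Hsp70 of endothelium, was at 18.8 to 21.1 FPKM in controls and 15.3 to 17.9 in d/d uteri (log2 change -0.29, SE 0.11; limma adjusted p 0.922). Endothelial markers (Pecam1, Cdh5, Kdr and Tek, all 4 listed, none at 0) summed to 169 to 189 in controls and 143 to 168 in d/d libraries, and their part in this difference was not tested. Hspa12a was also lower without overlap, at 4.76 to 4.92 against 4.12 to 4.25 FPKM. Hspa14, a ribosome-associated Hsp70, was highest in d/d replicate 2 (35.8 FPKM, against at most 26.2 elsewhere).

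The 11 other Hsp40 genes had a median change of 0.13, with 8 above 0 (0.02 and 6 without d/d replicate 2). Dnajc2, a ribosome-associated Hsp40, was at 12.2 to 19.0 FPKM in controls and 17.5 to 22.4 in d/d uteri, with overlap (log2 change 0.43, SE 0.18; limma adjusted p 0.922). Dnajb6 (0.19) and Dnajc7 (0.16) followed.

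The 23 co-chaperones of Hsp70 and Hsp90 had a median change of 0.01, with 14 above 0 and 9 below (7 and 16 without d/d replicate 2). Fkbp5, an Hsp90 co-chaperone that is induced by glucocorticoids, had the largest log2 change of the list at 0.96 (SE 0.38; limma adjusted p 0.922). Its values were 4.4, 2.25 and 1.58 FPKM in controls and 3.32, 6.12 and 9.88 in d/d replicates 1 to 3, so the groups overlapped. Without d/d replicate 3 the change was 0.64. Bag1, a nucleotide exchange factor of Hsp70, and Bag6 had changes of 0.18 and -0.17. In 17 of the 23 the highest d/d library was replicate 2, and in 16 the highest control was replicate 2, against 40.1% and 35.1% of all tested genes.

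Small heat shock proteins, which hold unfolded clients without ATP, had a median change of 0.16 over 6 tested genes, 4 above 0 and 2 below (median 0.12 with the same counts without d/d replicate 2). Hspb1, the most abundant, was at 162 to 191 FPKM in controls and 154 to 193 in d/d uteri (log2 change -0.08), and Hspb6 had a change of -0.14. Cryab was at 40.9, 52.6 and 53.2 FPKM in controls and 53.1, 80.2 and 50.8 in d/d replicates 1 to 3 (log2 change 0.30, SE 0.20), high in d/d replicate 2 alone. Hspb2 and Hspb7 had changes of 0.36 and 0.24. For chaperonins and mitochondrial folding and protease genes the median was 0.06, with 12 of 13 above 0. In 11 of the 13 the highest d/d library was replicate 2, and without it 4 were above 0 and 9 below (median -0.04). Clpp, the proteolytic subunit of a mitochondrial protease, was at 29.2 to 33.8 FPKM in controls and 33.3 to 38.1 in d/d uteri, with overlap (log2 change 0.23, SE 0.11), and Grpel2 and Grpel1, exchange factors of mitochondrial Hsp70, had changes of 0.18 and 0.12.

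The list of cold shock domain proteins, Srsf splicing factors and the temperature-sensing Clk kinases that phosphorylate them had a median change of 0.12, with 15 of 17 above 0, Clk1 and Clk3 among them at 0.0 after rounding. The library medians were 0.24, 0.09 and 0.0 in d/d replicates 1 to 3, and without d/d replicate 2 the count was 12 above and 5 below. Srsf3 and Ybx1, the latter a cold shock domain protein, had changes of 0.36 and 0.19, and their groups overlapped.

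**Figure D4:**
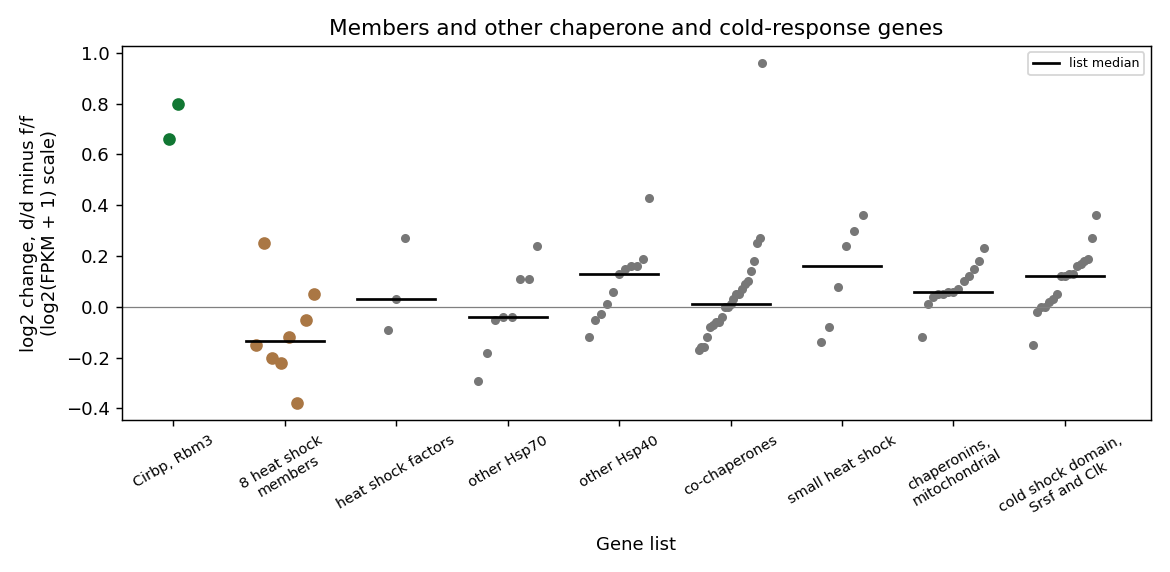
Log2 change (d/d minus f/f, log2(FPKM + 1) scale) of Cirbp and Rbm3, of the 8 heat shock members and of the tested genes of 7 other lists; each point is 1 gene and black bars are list medians. Medians of the heat shock list and the 7 others lie between -0.14 and 0.16, and the co-chaperone at 0.96 is Fkbp5.

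Genes with the library pattern most like that of a member were sought among all tested genes by Pearson correlation of log2(FPKM + 1) over the 6 libraries, as a description. The points share their libraries and scaling, and the best of 12640 genes were taken. Nearest to Cirbp were Tiam2 (r = 0.996), Hsd11b1 (0.996), which encodes an enzyme that regenerates active glucocorticoid, and the Notch target gene Hes1 (0.995). Hsd11b1 was at 3.5, 3.39 and 3.60 FPKM in controls and at 8.45, 3.36 and 9.77 in d/d replicates 1 to 3. Its d/d replicates 1 and 3 were thus high and d/d replicate 2 lay just below the controls, as for Cirbp. For Rbm3 the nearest were Med12l (0.997), Clcc1 (0.994) and BC031181 (0.987). Hspa8 was most like Rab31 (0.997), Slc2a10 (0.995) and Pdia4 (0.991), the last a chaperone of the endoplasmic reticulum, at 81.9 FPKM in d/d replicate 2 and 31.6 to 59.8 elsewhere. Hsp90aa1 was most like Gmps (0.997), Ube2j1 (0.995) and Gars (0.995). For Hspa1a the best values were lower, at 0.973 for Zfp12, 0.970 for Isyna1 and 0.962 for Dagla. The nearest genes to the others were Ino80e, B4gat1 and Fads2 for Hsp90ab1, Ism1, Zfp142 and Urb2 for Hspa1b, Nploc4 and Gfpt1 for Hsph1, Polr2l, Traf3 and Fmc1 for Dnajb1, and Cox19, Tnfaip1 and Sec23a for Hspd1.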

How the data were processed

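Poly(A) RNA from whole uteri was extracted with TRIzol and made into TruSeq libraries, per the labels' protocols. HISAT2 2.2.1, Cufflinks 2.2.1 and build mm10 are named in the submitters' processing notes, without their roles. The authors deposited 1 table per library with FPKM values; this unit was inferred from Cufflinks and the values, since the headers name only the library. Annotation, gene filter and strand setting are not given in the sources used here.

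Groups were read from the sample titles. The 10 members and all gene lists were chosen with earlier results of these data known. Genes named are Nat10, the members, the 3 genes with the smallest p in each other list, and the 3 nearest patterns of each member; Hspe1, which overlaps Hspd1, and Hspb1, Hspb6, Clk1 and Clk3 fall outside this rule and were chosen after their values were seen. Marker genes of cell types and tissue are named as checks. Some genes that this rule names are not reported here.

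FPKM of at least 1 in at least 3 libraries was required (12640 genes). log2(FPKM + 1) was fitted with limma 3.58.1 in R 4.3.3 (group as the only term, eBayes with trend; two-sided p, Benjamini-Hochberg over all tested genes); this scale understates changes of low genes. The fit was tested on simulated data. Alternatives were a pseudocount of 0.1, 2 other filters, quantile, median and upper-quartile scaling, no trend, array quality weights, a replicate block, and leaving out each library. Gene positions came from GENCODE M21 (GRCm38), and copies were sought with blastn 2.17.0 (at least 90% identity over 300 bases). Python 3.11.15 with pandas 2.3.3 was used for summaries. No 2 libraries held identical values. Cct6a and mitochondrially encoded genes were not analysed here.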

Additional observations from a re-analysis of the deposited data

How the results depend on the processing

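The changes of Cirbp and Rbm3 stayed above 0 under all 15 alternatives. The limma count of genes past an adjusted p of 0.05 was 0 in each alternative except array quality weights, with 316 genes (2.5%), and leaving out d/d replicate 2, with 12 genes (0.0949%); leaving out single libraries gave 0 to 12. Members among them were 2 with array quality weights (Cirbp and Rbm3) and 0 to 1 when a library was left out (Cirbp, without d/d replicate 2); since the members were chosen with this contrast known, nothing is read from these counts. Of the other chaperone and cold-response genes, 0 were called in any alternative. The Cirbp change ranged from 0.42 to 1.06 and the heat shock median from -0.24 to -0.01 when a library was left out. The signs of Hspa1b, Dnajb1 and Hspd1 changed in 1, 3 and 4 of 15 alternatives. Array quality weights moved Hsp90ab1 from -0.15 to -0.34, Hspa8 from -0.20 to -0.39, Hsph1 from -0.38 to -0.84, Dnajb1 from -0.05 to -0.14, Hspd1 from 0.05 to -0.14 and Hsp90aa1 from 0.25 to 0.10; the cause was not tested. With the replicate number as a block 0 genes and 0 members were called, and 726 genes had an unadjusted p under 0.05 against 630 without it. The labels do not say whether same-numbered libraries belong together, and 3 libraries per group are too few to decide it. Deviations from the group mean correlated at -0.341, -0.029 and 0.1 for same-numbered libraries and at -0.244 to 0.273 for the others. Read depth behind FPKM is unknown, which limits low genes most.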
